A study of Mus musculus with 2 samples.

Results

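The miR-30 genes are the 6 mouse microRNA (miRNA) genes Mir30a, Mir30b, Mir30c-1, Mir30c-2, Mir30d and Mir30e, found by name among the 1973 miRNA genes of the count tables. All 6 had an entry. They were measured by microRNA-seq of the small RNA in total RNA from the hindbrain of B6NCrl mice at age 0 day, with no treatment or mutation in the labels. The only group held 2 libraries, each from the hindbrain of 1 animal, pup 1 (replicate 1) and pup 3 (replicate 2). Although named as separate animals, the pups carry 1 shared donor identifier in the labels, with sex not recorded. Their differences measure the spread between these libraries, which may be technical, and no effect of a condition.

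A miRNA is cut from a hairpin precursor, and either arm of the hairpin (5p or 3p) can be loaded into an Argonaute protein. Bases 2 to 8 of the loaded arm, the seed, pair with target messenger RNAs and lower their output. The miR-30 family is expressed in many tissues and shares 1 seed, so its members have overlapping predicted targets. In human cells miR-30a is known to repress Beclin 1, an autophagy protein, and in human prefrontal cortex it has been linked to the neurotrophin BDNF. By the 3′ part of their 5p arms, miR-30a, miR-30d and miR-30e are usually grouped apart from miR-30b and miR-30c.

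Sequences from RefSeq (GRCm38.p6) matched 4 of the 6 members and the seed relative Mir384. Mir30b and Mir30d are named only. The 5p arms are shown first, with the seed in capitals, because they show what the family shares and where its members part.
miR-30a-5p: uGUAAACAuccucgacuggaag
miR-30e-5p: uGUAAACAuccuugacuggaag
miR-30c-5p: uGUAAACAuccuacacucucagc
miR-384-5p: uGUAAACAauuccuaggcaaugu
The seed GUAAACA was carried by 5 genes with a mature sequence in the table, which were Mir30a, Mir30c-1, Mir30c-2, Mir30e and Mir384, among 1738 mature sequences in all. Counted from 1 at the 5′ end, miR-30a-5p and miR-30e-5p differ by C13U alone. miR-30a-5p and miR-30c-5p are alike over their first 12 bases and then differ by C13A, G14C, G18C, G19U and A20C. miR-384-5p is alike with the others over the first 8 bases.

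The 3p arms, with their seeds in capitals, are shown because they set miR-30a and miR-30e apart from the miR-30c genes by seed, which the 5p arms do not.
miR-30a-3p: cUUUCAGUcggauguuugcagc
miR-30e-3p: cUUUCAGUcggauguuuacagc
miR-30c-1-3p: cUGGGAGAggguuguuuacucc
miR-30c-2-3p: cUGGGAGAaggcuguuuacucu
The miR-30a and miR-30e 3p arms differ by G18A, and the miR-30c-1 and miR-30c-2 3p arms by G9A, U12C and C22U.

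The miR-30c hairpins are shown because they bear on how these genes could be counted, with the longest stretch that they share in capitals.
Mir30c-1: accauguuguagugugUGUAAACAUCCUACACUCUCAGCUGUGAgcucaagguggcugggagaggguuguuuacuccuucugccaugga
Mir30c-2: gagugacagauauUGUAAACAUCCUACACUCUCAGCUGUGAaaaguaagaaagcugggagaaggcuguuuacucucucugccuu
This stretch of 28 bases holds the whole miR-30c-5p arm, so a read of that arm matches both genes. The arms of miR-30a and miR-30e each occurred whole in 1 of the 1005 hairpins of the table, and the longest stretch shared by the Mir30a and Mir30e hairpins was 18 bases. Reads that matched several genomic places were given to no gene in the tables. They made up 37.9% of the reads in the table of pup 1 and 39.4% in that of pup 3. The counts of Mir30c-1 and Mir30c-2 then hold no read that matches both genes equally, and the tables do not give the number of such reads. Its part in the low level of these genes was not tested. A count holds the reads of both arms of a gene.

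The genes lie in 3 pairs (coordinates on GRCm38, the assembly of mm10, with genes from GENCODE M21). On chromosome 4, Mir30e (ENSMUSG00000065409.1, 120772606 to 120772697) and Mir30c-1 (ENSMUSG00000065490.1, 120769534 to 120769622) both lie on the minus strand, with starts 3072 bases apart, in intron 5 of transcript Nfyc-201. Nfyc encodes a subunit of the CCAAT-binding factor NF-Y, and no exon of its 10 annotated transcripts overlaps either miRNA gene. On chromosome 1, Mir30a (ENSMUSG00000065405.2 in the tables, 23272269 to 23272339) lies on the plus strand and overlaps no other annotated gene. Its partner Mir30c-2 (ENSMUSG00000065567.1, 23291701 to 23291784) starts 19432 bases downstream, over an exon of the noncoding gene Gm27028. On chromosome 15, both genes are on the minus strand with starts 3793 bases apart. Mir30d (ENSMUSG00000065437.1, 68341208 to 68341289) lies over an exon of the noncoding gene Gm20732. Mir30b (ENSMUSG00000065476.2, 68337415 to 68337510) overlaps the noncoding gene Gm26621 by 16 bases. No other miRNA gene of the tables lies in Nfyc, Gm27028 or Gm20732. The tables hold miRNA genes only, so transcripts of the hosts were not measured.

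**Figure D1:**
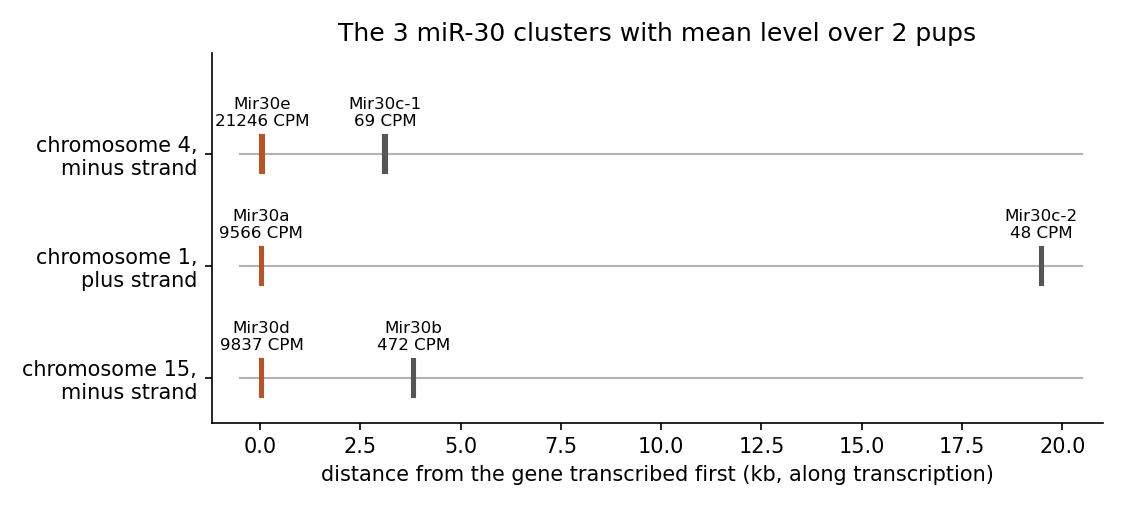
Position of the 6 genes within their clusters, to scale, as distance in kb along the direction of transcription, with the mean CPM over both pups above each gene. The upstream gene by strand, which the axis names as transcribed first, is the abundant one on all 3 chromosomes. Only the chromosome 4 pair shares an annotated host gene. The clusters on chromosomes 4 and 15 are shorter than the one on chromosome 1.

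Depth was 4906127 own-strand miRNA gene counts in pup 1 and 6238680 in pup 3, and levels are given in CPM, counts of a gene per 1000000 of these. With 0 counts the limit, at 3 counts, was 0.611 CPM in pup 1, against 0.481 CPM in pup 3, and covers counting error only, as the intervals do. Levels of different miRNA genes also hold differences in ligation and amplification. The labelled tissue was checked against lists of miRNA genes. Of the genes in the Hox clusters, which mark position along the body axis, 5 of 6 were detected (2 CPM in both pups). The list summed to 52557 CPM in pup 1, against 34978 CPM in pup 3. Of these sums Mir10a held 32189 CPM in pup 1 and 24602 CPM in pup 3, and Mir10b 19914.5 and 10051 CPM. Of the neuronal genes 5 of 8 were detected, with a summed 17561 CPM in pup 1, against 16568 CPM in pup 3. Reads matching several genomic places were given to no gene, so 0 or few counts in these lists need not mean a low level. Skeletal muscle genes summed to 174 CPM in pup 1, against 159 CPM in pup 3, with 3 of 5 at 0 in both. Of these sums Mir206 alone made up 172 CPM in pup 1 and 157 CPM in pup 3. Sums in the same order were 498 and 308 CPM for erythroid, 1015 and 725 CPM for leukocyte, 55322 and 65476 CPM for vessel, and 19030.5 and 17202 CPM for choroid plexus genes.

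The family took 5.08% of miRNA gene counts in pup 1 (exact Clopper-Pearson 95% interval 5.06 to 5.10) and 3.17% in pup 3 (3.16 to 3.18). The mean was 4.12% ± 1.35 (SD, n = 2). All 6 genes were detected, against 407 of 1973 genes in all (20.6%). The family split into abundant and low genes. Mir30e, Mir30a and Mir30d together held 98.9% of the family's counts in pup 1 and 98.0% in pup 3. These counts leave out reads that match both miR-30c genes. The remaining genes, Mir30b, Mir30c-1 and Mir30c-2, summed to 553 CPM in pup 1, against 625 CPM in pup 3.

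Mir30e, the more abundant gene of the Nfyc intron, was the highest of the family. It had 130011 counts or 26499.7 CPM in pup 1, against 99776 counts or 15993 CPM in pup 3, a mean of 21246 ± 7429 CPM (SD, n = 2). It ranked 8th of 1973 genes in pup 1 and 11th in pup 3, and pup 1 was higher.

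Mir30d, of the chromosome 15 pair, had 58522 counts or 11928 CPM in pup 1, against 48319 counts or 7745 CPM in pup 3, a mean of 9837 ± 2958 CPM. Mir30a, the gene with no annotated host, had 57838 counts or 11789 CPM in pup 1, against 45816 counts or 7344 CPM in pup 3, a mean of 9566 ± 3143 CPM. Mir30d and Mir30a lay closer to each other than the pups did, although Mir30d was the higher in each pup, while Mir30e was well above both. Mir30d ranked 18th in pup 1 and 30th in pup 3, and Mir30a 19th and 32nd.

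Mir30b, the partner of Mir30d, had 2121 counts or 432 CPM in pup 1, against 3193 counts or 512 CPM in pup 3. Its mean was 472 ± 56.2 CPM, and pup 3 was the higher one, unlike for the 3 abundant genes. Mir30b ranked 153rd in pup 1 and 134th in pup 3.

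Mir30c-1, in the same Nfyc intron as Mir30e, had 349 counts or 71.1 CPM in pup 1, against 416 counts or 66.7 CPM in pup 3. Its mean was 68.9 ± 3.15 CPM. Mir30c-2, the partner of Mir30a, had 242 counts or 49.3 CPM in pup 1, against 291 counts or 46.6 CPM in pup 3, a mean of 48.0 ± 1.90 CPM. Mir30c-1 was above Mir30c-2 in both pups, by 1.44-fold in pup 1 and 1.43-fold in pup 3. Both are counted without the reads that match their shared stretch, so this ratio is one of the reads that could be placed. The spread between pups, as a coefficient of variation, was 35.0% for Mir30e, 32.9% for Mir30a and 30.1% for Mir30d, against 11.9% for Mir30b, 4.57% for Mir30c-1 and 3.95% for Mir30c-2. Over the other 102 genes of at least 1000 CPM its median was 11.1%.

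**Figure D2:**
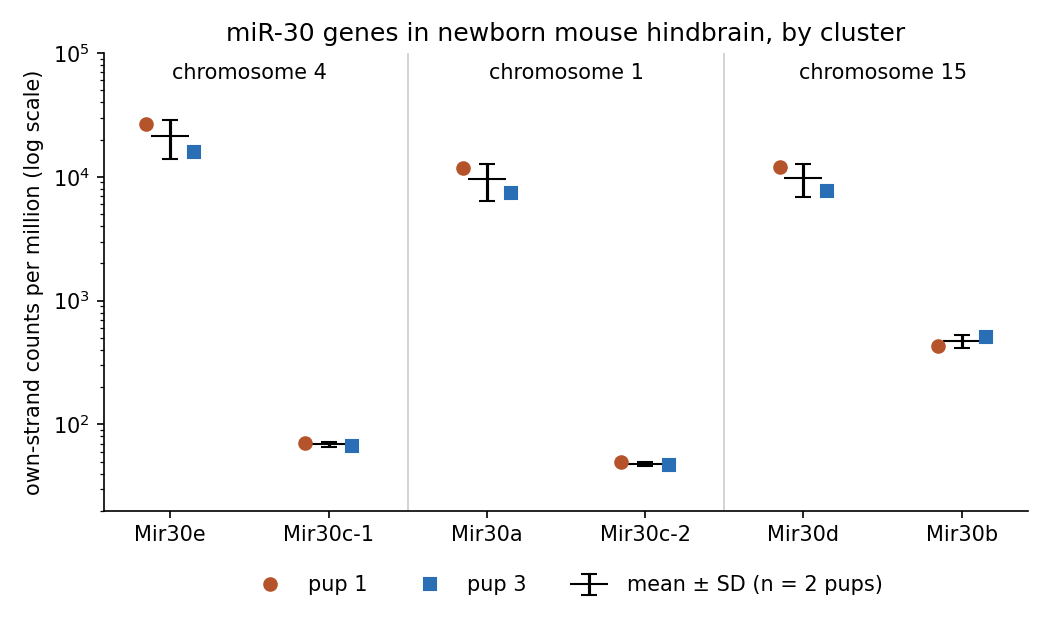
Own-strand CPM (log scale) of each miR-30 gene in pup 1 (circles) and pup 3 (squares), with mean ± SD (n = 2 pups), ordered by cluster. Each cluster pairs a gene at 7344 CPM or more in both pups with one at 512 CPM or less.

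No read was counted on the strand opposite to any of the 6 genes. The strand opposite to Mir30e is where Mir30f is annotated, a gene with no entry of its own in the tables, so its reads were at or below the limit that a count of 0 allows in both pups. Mir384, on the X chromosome (105344282 to 105344369, minus strand) and outside any annotated host, has the miR-30 seed and is known from rodent brain. It had 3187 counts or 649.6 CPM in pup 1, against 4111 counts or 659 CPM in pup 3. With Mir384, genes of this seed took 5.14% of counts in pup 1 and 3.24% in pup 3. These shares hold reads of both arms and leave out miR-30c-5p reads that match both miR-30c genes, so they are no total of this seed. The level of Mir384 stood above the counted levels of Mir30b and both miR-30c genes and far below those of the abundant members.

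The 2 hindbrains were compared gene by gene by exact binomial tests of own-strand counts, two-sided and Benjamini-Hochberg adjusted over the 508 genes with 10 or more counts in sum, which compares these libraries and holds counting error only. Log2 differences are pup 1 minus pup 3 on TMM effective library sizes, whose ratio, pup 1 over pup 3, was 0.859, with 1 CPM added. Calling a gene at 2-fold or more with an adjusted p below 0.05, the exact binomial test gave 0 of the 6 miR-30 genes, against 6.69% of the tested genes, of which 5.71% were higher in pup 1 and 0.984% lower. Without the fold threshold 4 of 6 passed, against 48.8%, and the same 4 had an unadjusted p under 0.05. Higher in pup 1 at any fold were 3 of 6, against 25.0%, and lower 1 of 6, against 23.8%. Depth bears on these counts, since 93.3% of the 105 genes of at least 1000 CPM passed at any fold, 36.2% as higher in pup 1.

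The 3 abundant genes were higher in pup 1 by similar amounts. The log2 difference was 0.60 for Mir30e (counting SE 0.00607), 0.55 for Mir30a (SE 0.00902) and 0.50 for Mir30d (SE 0.00887), each with an exact binomial adjusted p under 1e-300. The median absolute difference of the 407 detected genes was 0.28, and 83.0%, 79.4% and 75.2% of them differed less than Mir30e, Mir30a and Mir30d. Of the other 102 genes of at least 1000 CPM, 10 had a log2 difference at least as far above 0 as that of Mir30e, and 11 as that of Mir30a or of Mir30d. Counted in either direction, 11 differed at least as much as Mir30e, 14 as Mir30a and 19 as Mir30d. The median log2 difference of those 102 genes was -0.086. The Hox-cluster genes moved the same way as the abundant miR-30 genes, with 4 of 5 tested past the adjusted threshold as higher in pup 1. Of 4 leukocyte genes, 3 passed as higher in pup 1 and none as lower. Of 8 neuronal genes 4 passed as higher and 1 as lower, and of 5 choroid plexus genes 3 and 1. The vessel genes went the other way, with 0 of 3 higher and 2 lower. Of 2 skeletal muscle genes tested, 0 passed. Of 3 erythroid genes, Mir451a was higher in pup 1 (log2 0.71) and Mir144 lower (log2 -0.87), and Mir486 did not pass (log2 -0.21), so the higher erythroid sum in pup 1 rests on Mir451a. The part of these genes in the miR-30 difference was not tested.

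The low genes did not share this. Mir30b was lower in pup 1, with a log2 difference of -0.37 (SE 0.04, exact binomial adjusted p = 1.01e-19). For Mir30c-1 it was -0.034 (SE 0.10, exact binomial adjusted p = 0.85) and for Mir30c-2 -0.046 (SE 0.13, exact binomial adjusted p = 0.837). On library totals instead of TMM, Mir30c-1 was at 0.092 and Mir30c-2 at 0.079. Mir384 had -0.15 (SE 0.03, exact binomial adjusted p = 3.54e-05). The median over the 6 miR-30 genes was 0.23, against 0.02 over all detected genes.

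**Figure D3:**
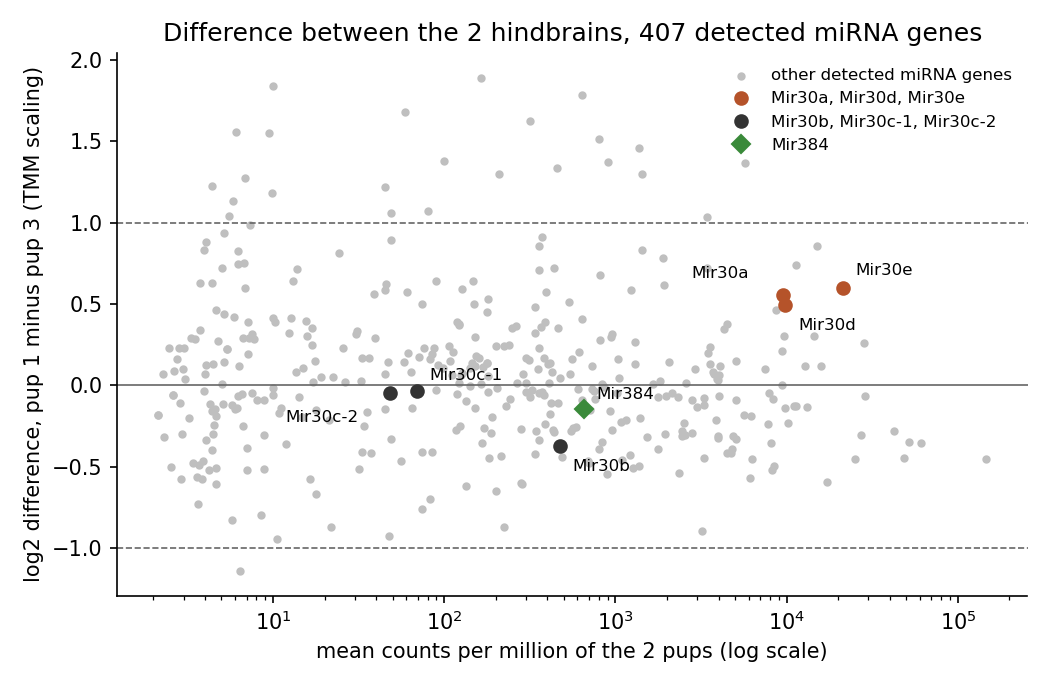
Log2 difference between the hindbrains (pup 1 minus pup 3, TMM scaling) against mean CPM (log scale) for the 407 detected genes, with the 2-fold limits dashed. Mir30a, Mir30d and Mir30e lie at 0.50 to 0.60, and Mir30b, Mir30c-1, Mir30c-2 and Mir384 lie below 0, although Mir30c-1 and Mir30c-2 lie above 0 on library totals.

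By cluster, the Nfyc pair took 2.66% of counts in pup 1 and 1.61% in pup 3. The chromosome 1 pair took 1.18% in pup 1 and 0.739% in pup 3, and the chromosome 15 pair took 1.24% in pup 1 and 0.826% in pup 3. All 3 clusters took a larger share in pup 1, the one in a protein-coding host as well as those with noncoding or no annotated hosts. These shares restate the abundant genes. In pup 1 Mir30e held 130011 of 130360 counts of its cluster, Mir30a 57838 of 58080 and Mir30d 58522 of 60643.

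Within clusters, the gap between partners was wide and differed between the pups. Mir30e had 373 times the counts of Mir30c-1 in pup 1 and 239.8 times in pup 3. Mir30a had 239 times those of Mir30c-2 in pup 1 and 157 times in pup 3, and Mir30d had 27.6 times those of Mir30b in pup 1 and 15.1 times in pup 3. The gaps of Mir30e and Mir30a are to miR-30c genes, which are counted without reads of their shared stretch. The abundant gene was the upstream one, by strand and position, in 3 of 3 clusters. Only the Nfyc pair shares an annotated host gene, so transcription from 1 shared start was not shown for the other pairs. The 365 other pairs of detected miRNA genes that start within 10 kb on 1 strand share genes with each other. Most of them combine genes of 1 imprinted region. Their higher gene lay upstream in 186 pairs (51.0%).

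All 3 ratios were higher in pup 1, by more than counting error, with Fisher's exact test (two-sided) on the counts, adjusted over the 3 clusters. For Mir30d and Mir30b the ratio differed 1.82-fold (log2 0.87, 95% counting interval 0.79 to 0.95, exact adjusted p = 3.48e-99). For Mir30e and Mir30c-1 it differed 1.55-fold (log2 0.64, interval 0.43 to 0.84, exact adjusted p = 2.16e-09). For Mir30a and Mir30c-2 it differed 1.52-fold (log2 0.60, interval 0.36 to 0.85, exact adjusted p = 1.75e-06). Changes of this size, counted in either direction, were common among the other pairs, most of which come from 1 imprinted region. The median absolute log2 change over the other 365 pairs was 0.33, and 17.5%, 25.2% and 27.9% of them changed at least as much as these 3 pairs did, in either direction. With the sign kept, their median log2 change was -0.15, opposite to that of the 3 miR-30 pairs. The gap itself was matched by 17 of the 365 pairs for Mir30e, 22 for Mir30a and 112 for Mir30d. Among the 293 pairs with 100 or more counts of each gene in each pup, as all 6 miR-30 genes have, it was matched by 4, 7 and 69, a filter chosen after seeing the data. Partners on chromosome 1 start further apart than the 10 kb of those pairs.

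**Figure D4:**
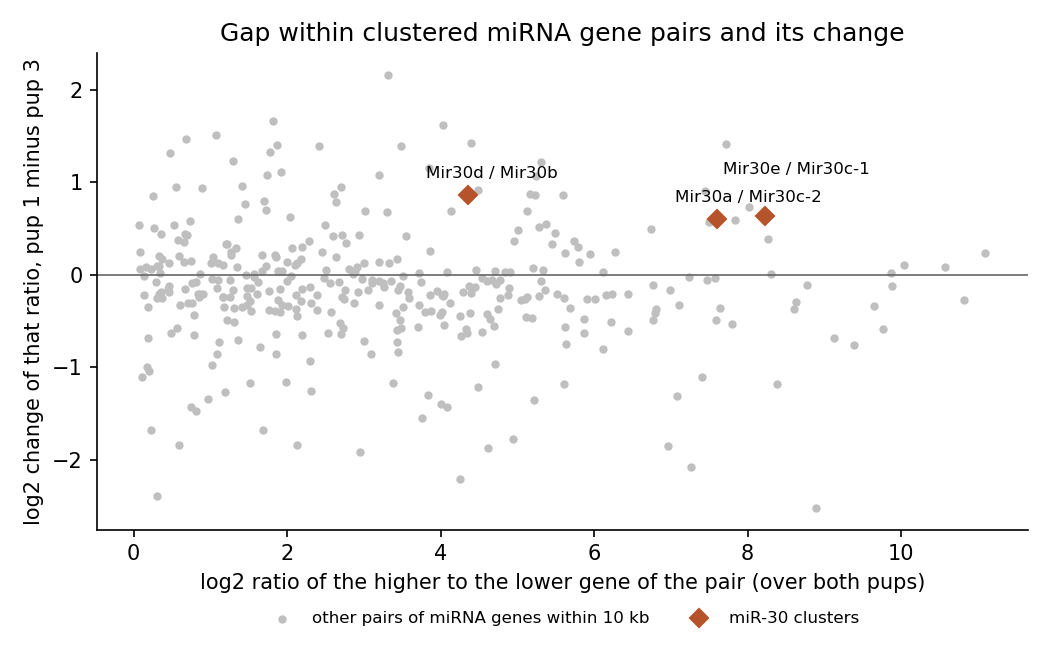
Change of the ratio of higher to lower gene (log2, pup 1 minus pup 3) against the ratio itself (log2) for the 3 miR-30 clusters (diamonds) and 365 other pairs of detected miRNA genes within 10 kb (grey points). The miR-30 clusters lie at 0.60 to 0.87, inside the spread of the other pairs, most of which come from 1 imprinted region.

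The abundant members, each on another chromosome, kept steadier ratios to each other than to their own partners. In pup 1 Mir30e had 2.25 times the counts of Mir30a, and in pup 3 2.18 times. Mir30d had 1.01 times those of Mir30a in pup 1 and 1.05 times in pup 3. Mir30e held 52.2% of the family's counts in pup 1 and 50.4% in pup 3, Mir30a 23.2% in each, and Mir30d 23.5% and 24.4%. Over all 15 pairs of members, the ratio in pup 1 relative to pup 3 was 0.959 to 1.08 for the 3 pairs of abundant genes and 0.792 to 1.01 for the 3 pairs of low genes. For the 9 pairs of an abundant with a low gene it was 1.44 to 1.96. Mir30c-1 and Mir30c-2, on chromosomes 4 and 1, changed by a log2 of 0.013 (95% counting interval -0.31 to 0.33). Pairs with a miR-30c gene use counts that leave out reads matching both miR-30c genes, so their ratios are not ratios of whole levels. These groups of pairs were formed after the levels were seen and carry no test.

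**Figure D5:**
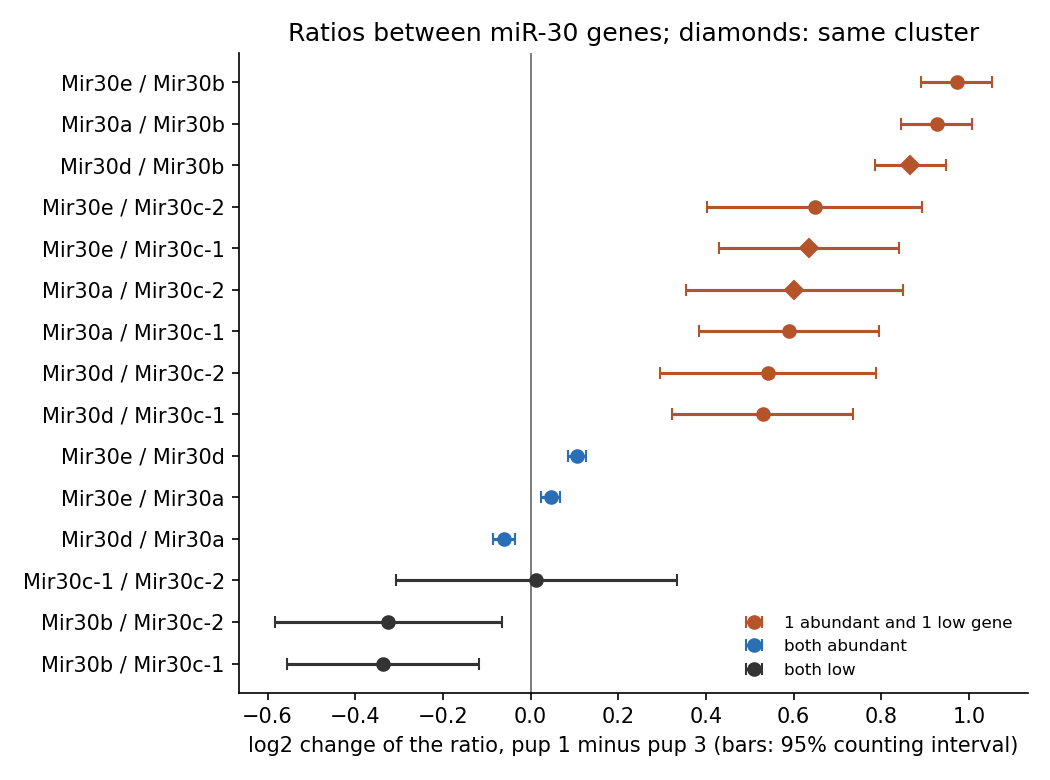
Log2 change of the ratio of counts between each of the 15 pairs of miR-30 genes, pup 1 minus pup 3, with 95% counting intervals, and diamonds for partners in 1 cluster. The 9 pairs of an abundant with a low gene lie at 0.53 to 0.97, and the 3 pairs of abundant genes at -0.06 to 0.11. Counts of the miR-30c genes leave out reads that match both of them.

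Genes most like the abundant members were found by distance in log2(CPM + 1) over the 2 pups, among 102 other genes of at least 1000 CPM. Nearest to Mir30a were Mir23b, at 10486 CPM in pup 1, against 6958 CPM in pup 3, and Mir17, at 11119 and 8243 CPM. Nearest to Mir30d were Mir17 and Mir204, with Mir204 at 10549.5 CPM in pup 1, against 8349 CPM in pup 3. Mir30e had no neighbour as close. Its nearest were Mir99b, at a distance of 0.64, and Mir10a, at 0.68, against 0.19 for Mir23b from Mir30a and 0.14 for Mir17 from Mir30d. Over 2 pups this likeness is mostly one of level.

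Broadly expressed families of the brain, let-7, miR-26 and miR-29, served for comparison, and each was lower in pup 1 as a share of counts. Reads that match several genomic places are missing here too, so these shares may fall short of whole family levels. The let-7 genes, which restrain proliferation, took 12.8% in pup 1 and 13.8% in pup 3. Of 12 let-7 genes listed 10 had an entry and were tested, and of these 6 passed at any fold as higher in pup 1 and 4 as lower. The miR-26 genes took 1.44% in pup 1 and 1.99% in pup 3, with 0 of 3 higher and 1 lower, Mir26b, at a log2 difference of -0.59. Mir26b alone held 70468 of the 70853 miR-26 counts in pup 1 and 123848 of 124243 in pup 3. The miR-29 genes took 0.108% in pup 1 and 0.119% in pup 3, with 1 of 4 higher and 2 lower.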

How the data were processed

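MicroRNA-seq libraries of 2 newborn hindbrains were analysed. For each library the authors deposited raw counts of reads per miRNA gene, on either strand, the gene's own strand and the opposite strand, with mm10 and annotation M4 named in the text files deposited beside the tables. Neither aligner nor counting tool is given in the sources used here. Own-strand counts were used, 4906127 in pup 1 and 6238680 in pup 3. Rows that name no gene stayed out of totals and tests. They held 59.5% of the own-strand column in pup 1 and 56.4% in pup 3.

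Of 1973 gene IDs, 1894 matched GENCODE M21 without their version. TMM came from edgeR 4.0.16 and alternative size factors from DESeq2 1.42.0 (R 4.3.3). Tests used scipy 1.17.1. The per-gene binomial test was also run on simulated counts that held counting error only. That run does not assess the test where libraries differ by more than counting error. The edgeR quasi-likelihood test needs replicates per arm and could not be run for 1 pup against 1. Sequences and hairpin matches came from RefSeq's table. A count of genomic copies was planned and not run, as no genome sequence was used here.

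The named genes are the members, the seed relatives, the 2 nearest genes of at least 1000 CPM for each member at that level, and the hosts. Mir10b, Mir26b, Mir99a, Mir137, Mir206 and the erythroid genes were named outside this rule after their values were seen. The members and lists were chosen with earlier results of these data known.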

Additional observations from a re-analysis of the deposited data

How the results depend on the processing

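The family share was 3.17% to 5.08% with either pup left out, and 1.72% with all reads in the tables as denominator, where it was still higher in pup 1 (1.49-fold). It moved by less than the spread between pups on either strand and without Mir99a, the gene of highest count, in the denominator. All 6 members were also detected at 10 CPM. Detection at 1 CPM and in each pup alone follows from detection at 2 CPM in both pups. The 34 genes called between pups, 29 higher and 5 lower in pup 1, became 18, 18 and 0 with 100 or more counts, where fewer genes were tested. Without a fold threshold 248 genes passed, 127 higher and 121 lower, 4 of them members. The signs of Mir30c-1 and Mir30c-2 turned on library totals, to 0.092 and 0.079. No other member changed sign under DESeq2 size factors, library totals or either strand. Either strand changed only the scaling for members, as no read was counted opposite to them. The count minimum does not enter the log2 difference and could not change a sign. The median absolute log2 change of the ratio in other cluster pairs was 0.34 within 2 kb, 0.33 within 50 kb, and 0.33 with 100 or more counts, a filter chosen after seeing the data. No comparison between pups is possible with 1 left out. No paired analysis was possible because both libraries belong to 1 group. Precision of the miR-30c genes is limited by their low counts, 242 to 416 per pup.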
